A study of Mus musculus with 36 samples.

Results

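The lowest dose of interleukin-6 (IL-6) given alone was set against saline in mouse hypothalamus. The 12 arrays of this comparison, 6 of IL-6 Low and 6 of Control, were all those labelled for these treatments among the 36 arrays of the series, and no array was chosen by its values. Male C57BL/6 mice of about 20 g, housed singly, received 50 µl intraperitoneally shortly before the dark phase, and the hypothalamus was collected 5 h later. IL-6 Low mice received 50 pg IL-6 and no TNFα. Control mice received saline without a cytokine. The labels name no genetic change or other treatment in either group. The remaining 24 arrays belong to mice given 800 pg IL-6 (IL-6 High), 15 pg TNFα, or TNFα with either dose of IL-6. The RNA of each mouse was hybridised to an Affymetrix Mouse Gene 1.1 ST array of its own, and values are log2 intensities after robust multi-array averaging (RMA), in which a difference of 1 is a doubling. The study kept 12 mice per group, of which 6 had arrays.

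The arrays were alike in range. Their median log2 intensity lay between 5.58 and 5.71, and no pair of arrays held identical values. The median correlation of an array with the other 11 ran between 0.972 and 0.989. Control replicate 1 had the lowest. The labelled tissue was checked with 12 genes of hypothalamic neurons (Avp, Oxt, Hcrt, Pomc, Npy, Trh, Sst, Nkx2-1, Otp, Sim1, Nr5a1 and Six3), and all 12 exceeded an intensity of 20 on every array. The label and the array name of Control replicates 5 and 6 give different mouse numbers, and the numbers in the array names are those of 2 mice of the group given TNFα with 800 pg IL-6. Both sources call these 2 arrays Control. They were kept, and results that move without them are given both ways.

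IL-6 is a cytokine released in infection, inflammation and cancer. It binds the receptor IL-6Rα, which then joins the signal-transducing chain gp130 (encoded by Il6st), and the kinases JAK1 and JAK2 phosphorylate the transcription factor STAT3. STAT3 enters the nucleus and switches on genes that include its own inhibitor Socs3, so Socs3 mRNA is a common readout of recent IL-6 action. In the hypothalamus, the cytokine acts on a tissue in which Npy neurons stimulate feeding and Pomc neurons restrain it, and serotonin released from fibres of the brainstem raphe lowers food intake. The comparison addresses whether a small dose of IL-6 alone is visible in the hypothalamic transcriptome.

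STAT dimers recognise a palindrome, TTCNNNGAA, in which N is any base. This palindrome reads the same on both strands, and it was searched in 32851 RefSeq promoter windows (GRCm38.p6) of 300 bases, 250 before and 50 after each annotated start. A gene counted as holding it if any of its windows did, so a gene with more windows had more chances to be counted. Of 27 tested STAT3 target genes, 23 had a promoter in the table, and 6 of these 23 (26.1%) held the palindrome, against 986 of 11906 tested genes with a promoter (8.28%). The 6 windows are shown because they hold this palindrome, and binding of STAT3 to them was not tested. They hold 25 bases on either side of the palindrome, which is in capitals, and run 5′ to 3′ on the strand of the gene. The windows lie at chr11:117969487-117969545 (minus strand) for Socs3, chr9:21015873-21015931 (plus) for Icam1, chr5:21372612-21372670 (plus) for Fgl2, chr5:7960331-7960389 (plus) for Steap4, chr11:102897169-102897227 (minus) for Gfap and chr11:53769899-53769957 (plus) for Irf1.
Socs3: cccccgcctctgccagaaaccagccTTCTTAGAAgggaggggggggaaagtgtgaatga
Icam1: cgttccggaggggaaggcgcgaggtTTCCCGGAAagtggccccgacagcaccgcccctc
Fgl2: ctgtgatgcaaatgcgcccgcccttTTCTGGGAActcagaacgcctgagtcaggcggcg
Steap4: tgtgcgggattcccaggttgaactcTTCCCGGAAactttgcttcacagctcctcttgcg
Gfap: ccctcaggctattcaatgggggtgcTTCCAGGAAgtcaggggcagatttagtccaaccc
Irf1: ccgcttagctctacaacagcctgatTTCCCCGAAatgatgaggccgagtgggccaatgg

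None of the 15192 tested genes passed an adjusted p of 0.05 in limma's test with Benjamini-Hochberg adjustment (0% called). The smallest unadjusted p was 0.00137, and the smallest adjusted p was 1.00. At an unadjusted p under 0.05, 80 genes (0.527%) had a higher mean in IL-6 Low than in Control and 170 genes (1.12%) a lower one. These 250 genes (1.65%) are fewer than the 759.6 that 5% of the tested genes would give. The same test with the intensity-based moderated statistic gave 79 genes higher, 173 lower and none after adjustment. The share of higher genes among those with a p under 0.05 moved with the scaling of the arrays. It was 32.0% as deposited, 43.1% after median centring (124 higher, 164 lower) and 51.0% after quantile normalization (183 higher, 176 lower).

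**Figure D1:**
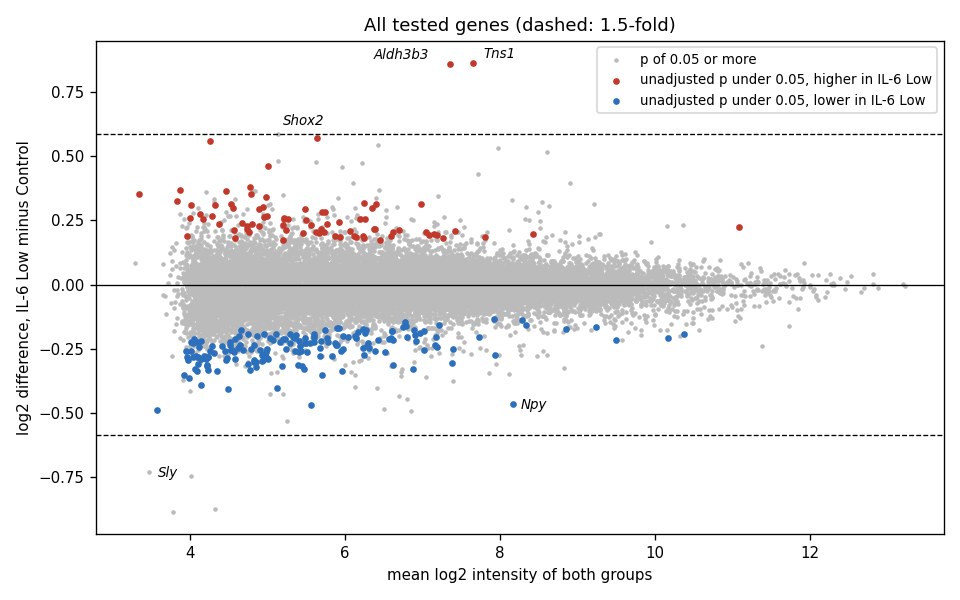
Log2 difference of IL-6 Low minus Control (y axis) against the mean log2 intensity of both groups (x axis) for the 15192 tested genes, each a point. Genes with an unadjusted p under 0.05 are red where IL-6 Low was higher (80) and blue where it was lower (170), and nearly all points lie between the dashed lines of a 1.5-fold difference.

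Few genes differed by much. Over all tested genes the median log2 difference was -0.0078 and the median size of a difference, without its sign, was 0.048. The group means of 3 genes were higher in IL-6 Low by a fold over 1.5 (0.0197% of tested genes), and those of 4 genes were lower (0.0263%). A fold over 1.2 with an unadjusted p under 0.05 was reached by 28 higher (0.184%) and 60 lower genes (0.395%), 88 in all (0.579%). The arrays limited how large a difference could go unseen. Standard errors of the log2 differences had a median of 0.089, and their 95% intervals reached, at the median, 0.19 to either side. For 14968 genes (98.53%) the whole 95% interval lay within a 1.5-fold difference in either direction. The number of arrays limits this precision.

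Genes of the IL-6 receptor complex had nearly the same level in both groups. Il6ra, the ligand-binding receptor, ranged over 6.05, 6.17 and 6.19 (lowest, median, highest) in IL-6 Low and 5.96, 6.14 and 6.25 in Control. The interval of its difference ran from -0.13 to 0.18 on the log2 scale, with a difference of 0.026. Il6st, which encodes the shared chain gp130, ranged over 9.13, 9.33 and 9.39 in IL-6 Low and 9.22, 9.36 and 9.51 in Control. Its difference was -0.056, with an interval from -0.19 to 0.081. Transcripts of the cytokine itself were at the floor of the array: Il6 lay between 1.87 and 2.22 in IL-6 Low and between 1.85 and 2.49 in Control, exceeded an intensity of 20 on 1 of 36 arrays and was not tested, and the related cytokine gene Osm was left out for the same reason. Of the 8 tested ligands and receptors of the IL-6 family, 5 had a higher mean in IL-6 Low and 3 a lower one, and none had an unadjusted p under 0.05. The largest difference of the list belonged to Clcf1, a ligand of the ciliary neurotrophic factor receptor, at -0.18 ± 0.12 (SE, unadjusted p = 0.139 in limma's test).

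The kinases and transcription factors below the receptor did not pass either. Stat3 ranged over 7.94, 8.12 and 8.45 in IL-6 Low and 8.19, 8.29 and 8.44 in Control, and the groups overlapped. IL-6 Low replicates 3 to 6 lay below all Control arrays, and replicate 2 lay above them. The difference was -0.15 ± 0.080 (SE), with an unadjusted p of 0.0793 in limma's test and an exact two-sided permutation p of 0.102. Stat5b, which encodes a related STAT, differed by -0.073, and the kinase genes Jak1 and Jak2 by 0.0080 and 0.014. Over the 9 tested genes of this group, which also holds the adaptor genes Grb2 and Gab1, 5 means were higher and 4 lower in IL-6 Low, with a median difference of 0.0046.

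Socs3, the feedback inhibitor that STAT3 induces and whose promoter window is printed above, was not higher in IL-6 Low. It ranged over 4.73, 4.95 and 5.00 in IL-6 Low and 4.90, 5.02 and 5.21 in Control. IL-6 Low replicates 3 and 5 were below all Control arrays, and Control replicates 2 and 6 were the highest, with the other arrays overlapping. Its difference was -0.13 ± 0.090 (SE, unadjusted p = 0.164), and the upper end of the 95% interval was 0.058. The exact permutation p was 0.106. A second transcript cluster of the gene differed by -0.17. The sign was the same under all 27 alternatives, and leaving out single arrays gave -0.16 to -0.095. Among the 15 tested inhibitors of JAK and STAT signalling, which also include the other SOCS genes, the PIAS genes and tyrosine phosphatases, 10 means were higher and 5 lower, with differences between -0.13 and 0.11 and a median of 0.017. None had an unadjusted p under 0.05. Ptpn6, which encodes the phosphatase SHP-1 of blood cells and microglia, had the smallest p after Socs3, with a difference of 0.090.

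**Figure D2:**
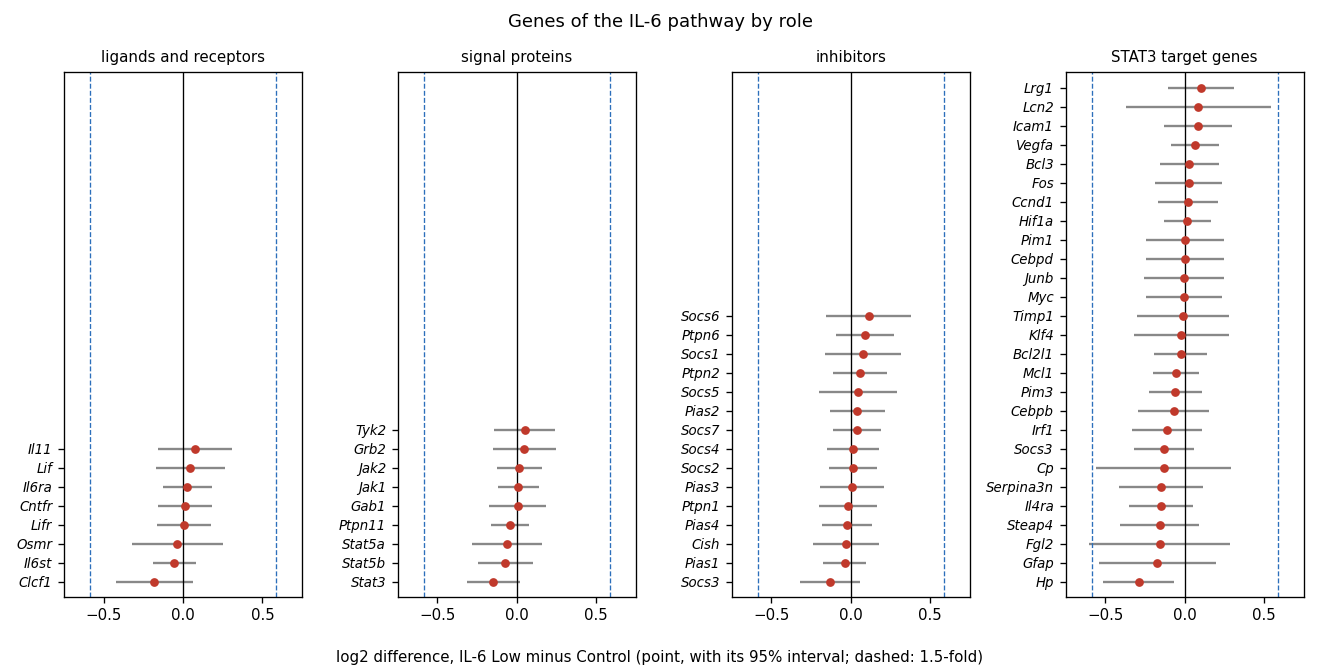
Log2 difference of IL-6 Low minus Control (x axis) with its 95% interval (horizontal lines) for the tested genes of the IL-6 pathway, in 4 panels by role, with dashed lines at a 1.5-fold difference. All intervals but that of Hp include 0, and all but that of Fgl2 lie within the dashed lines.

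STAT3 target genes as a group were spread around no difference. Of 27 tested, 10 had a higher mean in IL-6 Low and 17 a lower one, against 45.8% higher and 54.2% lower over all tested genes, and the median difference was -0.021, against -0.0078 over all tested genes. One had an unadjusted p under 0.05. This was Hp, which encodes the haemoglobin-binding acute-phase protein haptoglobin. Hp ranged over 3.76, 4.14 and 4.28 in IL-6 Low and 4.24, 4.34 and 4.44 in Control, and exceeded an intensity of 20 on none of the IL-6 Low and 3 of the Control arrays. IL-6 Low replicates 3 and 4 were the lowest, and replicate 1 alone lay within the range of Control. Its difference was -0.29 ± 0.11 (SE, unadjusted p = 0.0141, adjusted p = 1.00 in limma's test). The differences of the 6 genes with the palindrome were -0.13 for Socs3, 0.085 for the adhesion molecule gene Icam1, -0.16 for the fibrinogen-like gene Fgl2, -0.16 for the metalloreductase gene Steap4, -0.17 for the astrocyte filament gene Gfap and -0.11 for the transcription factor gene Irf1. Thus 1 of these 6 had a higher and 5 a lower mean, with a median of -0.14, against -0.0097 for the members without the palindrome. Over all tested genes with a promoter, the median was -0.0081 with the palindrome and -0.0076 without it. The 95% intervals of the 6 genes all included 0. The 6 genes were named for the palindrome and not for their values. Irf1 has a second cluster, which differed by 0.061.

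Acute-phase genes, which the liver makes in response to IL-6 and which brain cells can also express, gave 4 higher and 6 lower means among 10 tested, with a median of -0.092. Lcn2, which encodes the iron-scavenging lipocalin-2, ranged over 4.42, 4.93 and 5.97 in IL-6 Low and 4.59, 5.05 and 5.47 in Control. IL-6 Low replicates 1 and 4 were the highest of the 12 arrays and IL-6 Low replicate 2 the lowest. The difference was 0.087, and leaving out IL-6 Low replicate 4 turned it to -0.082.

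Npy, which encodes the appetite-stimulating neuropeptide Y, had a lower mean in IL-6 Low and did not pass the adjusted threshold. Its level was 8.05, 8.33, 7.91, 7.74, 7.77 and 7.79 in IL-6 Low replicates 1 to 6. In Control replicates 1 to 6 it was 9.30, 8.12, 8.37, 8.20, 8.69 and 7.68. The IL-6 Low arrays lay close together, Control replicate 1 was far above them and Control replicate 6 below all of them, so the groups overlapped. The means were 7.93 ± 0.23 in IL-6 Low and 8.39 ± 0.55 in Control (SD, n = 6 each), and the mean difference of -0.46 ± 0.18 (SE) put IL-6 Low at 72.5% of Control. The unadjusted p of limma's test was 0.0209, the adjusted p 1.00 and the exact two-sided permutation p 0.0801, or 0.212 adjusted over the 6 genes tested this way. No p below 0.00216 is possible with 6 against 6 arrays. The value depended on single Control arrays: it was -0.28 without Control replicate 1 and -0.61 without Control replicate 6. Without both Control replicates 5 and 6 it was -0.57. In bulk tissue, fewer cells of a type and less RNA per cell cannot be told apart.

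The array names carry 1 of 4 letters, whose meaning the labels do not give, and each letter holds both groups. Within letter E (1 array per group) the Npy difference was -1.25, within F (2 per group) -0.13, within G (2 per group) -0.69 and within H (1 per group) 0.10. The direction was not the same in all 4. Over all tested genes the median difference was 0.11 within E, 0.0025 within F, -0.079 within G and -0.0028 within H. With the letter as a block the unadjusted p was 0.00294 and no gene passed the adjusted threshold.

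**Figure D3:**
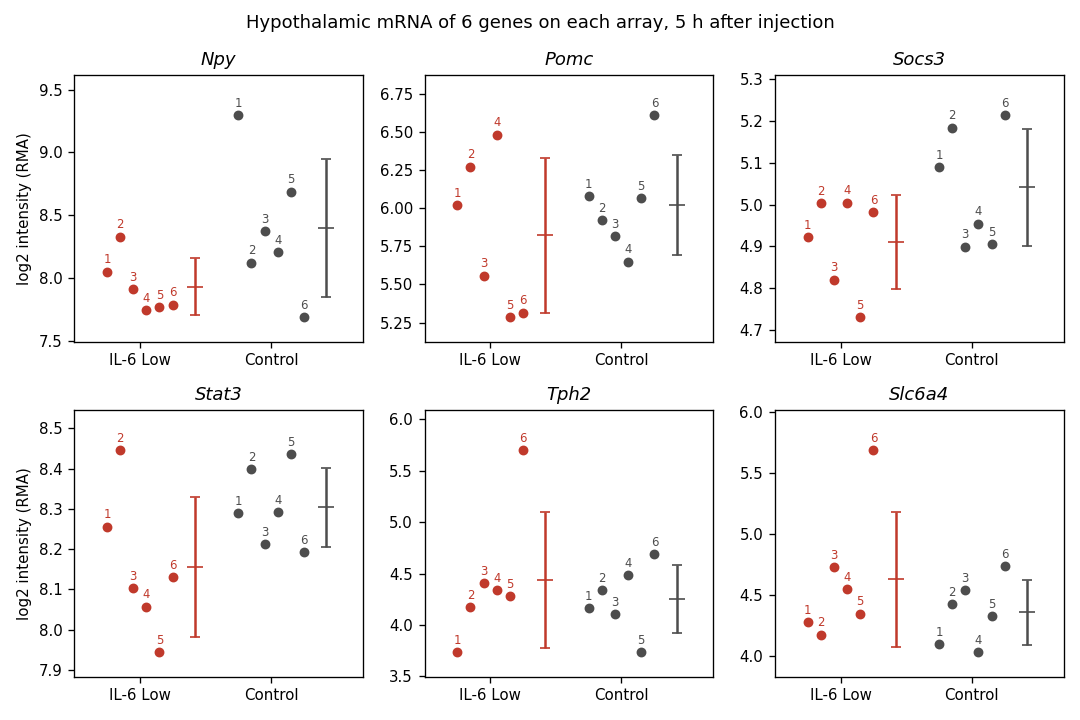
Log2 intensity (y axis) of Npy, Pomc, Socs3, Stat3, Tph2 and Slc6a4 on each array, IL-6 Low left and Control right, with the replicate number at each point and the mean ± SD beside each group. The groups overlap for all 6 genes. Control replicate 1 (9.30) stands above the rest for Npy, and IL-6 Low replicate 6 for Tph2 (5.70) and Slc6a4 (5.69).

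Npy was the only 1 of 14 tested appetite-stimulating neuropeptides and their receptors with an unadjusted p under 0.05. In this list 5 means were higher and 9 lower in IL-6 Low, with a median of -0.033. Gal, which encodes the feeding peptide galanin, differed by -0.28, the orexin precursor gene Hcrt by -0.035 and the ghrelin receptor gene Ghsr by 0.070. These 3 were named after their values were seen. Pomc, the precursor gene of the appetite-suppressing peptide α-MSH, ranged over 5.28, 5.79 and 6.48 in IL-6 Low and 5.65, 5.99 and 6.61 in Control. IL-6 Low replicates 3, 5 and 6 were below all Control arrays, while replicates 2 and 4 were above all Control arrays but replicate 6. Its difference was -0.20 ± 0.19 (SE), with an exact permutation p of 0.426. The gene is also expressed in the pituitary, whose hormone genes were high on IL-6 Low replicate 4 and Control replicate 6, as given below. Without both of these arrays the Pomc difference was -0.22.

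The other appetite-suppressing genes did not pass the adjusted threshold either. Of 21 tested, 6 had a higher and 15 a lower mean, with a median of -0.041, and none had an unadjusted p under 0.05. Trh, which encodes thyrotropin-releasing hormone, ranged over 7.64, 8.13 and 8.65 in IL-6 Low and 7.85, 8.42 and 8.88 in Control, with a difference of -0.23 ± 0.17 (SE, unadjusted p = 0.172). Nmur2, a receptor of neuromedin U, differed by -0.11. Among 15 other hypothalamic peptides, 4 means were higher and 11 lower, with a median of -0.10. Vip, which encodes a peptide of the suprachiasmatic clock, ranged over 5.76, 6.08 and 6.26 in IL-6 Low and 6.00, 6.25 and 6.71 in Control (difference -0.22 ± 0.11, SE, unadjusted p = 0.0666). Qrfp, another feeding peptide gene, differed by -0.16. The median of the peptide list was -0.022 within letter E, -0.070 within F, -0.24 within G and -0.012 within H. Hypothalamic transcription factors had 6 higher and 17 lower means of 23 tested, with a median of -0.063. One of them, Rax, which marks tanycytes, had an unadjusted p of 0.0318 at levels around the intensity minimum, over 3.80, 3.95 and 4.05 in IL-6 Low and 3.98, 4.14 and 4.42 in Control.

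Transcripts of serotonin synthesis and transport did not pass. Tph2, which encodes the rate-limiting enzyme of neuronal serotonin synthesis, ranged over 3.73, 4.31 and 5.70 in IL-6 Low and 3.74, 4.25 and 4.69 in Control. IL-6 Low replicate 6 was the highest of the 12 arrays, and the rest of the IL-6 Low arrays lay within the range of Control or at its lower edge. Its difference was 0.19 ± 0.23 (SE, exact permutation p = 0.634), and it was -0.067 without IL-6 Low replicate 6. Slc6a4, which encodes the serotonin transporter, was also highest on that array, at 5.69, and its difference of 0.27 (exact permutation p = 0.353) was 0.056 without it. Both genes were near the intensity minimum, with 3 IL-6 Low and 3 Control arrays over 20 for Tph2 and 4 of each for Slc6a4. Their mRNA belongs to cell bodies that lie in the raphe and not in the hypothalamus. Of 10 tested markers of raphe serotonergic neurons, 8 means were higher and 2 lower, with a median of 0.059, and Slc17a8, which encodes a vesicular glutamate transporter, had an unadjusted p under 0.05 (0.0136, difference 0.37). The mean level of this marker list lay between 5.52 and 6.19 in IL-6 Low, with replicate 6 the highest, and between 5.47 and 5.82 in Control. The list holds Tph2 and Slc6a4 themselves. Without both, 6 of 8 means were higher, with a median of 0.034, and the level lay between 5.86 and 6.31 in IL-6 Low, with replicate 6 again the highest, and between 5.80 and 6.11 in Control, and its part in the Tph2 and Slc6a4 differences was not tested.

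The other genes of the serotonin list had smaller differences. Over 14 tested genes of synthesis, transport and breakdown, 10 means were higher and 4 lower, with a median of 0.068, and none had an unadjusted p under 0.05. Spr, an enzyme of the cofactor tetrahydrobiopterin, differed by 0.13. Of 13 tested serotonin receptors, 6 were higher and 7 lower, and Htr2a and Htr3b had the smallest p, with differences of -0.10 and -0.13. The Htr3b difference was -0.023 without Control replicate 1, on which the gene was highest (4.85). Of 5 tested genes of the kynurenine pathway, which diverts tryptophan from serotonin, 3 were higher and 2 lower. Ido2 differed by -0.18.

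Genes of dopamine neurons gave 12 higher and 2 lower means of 14 tested, with a median of 0.093 and none with an unadjusted p under 0.05. Chrna6, a nicotinic receptor subunit of midbrain dopamine neurons, ranged over 4.98, 5.90 and 6.49 in IL-6 Low and 4.53, 5.18 and 6.37 in Control (difference 0.48 ± 0.28, SE, unadjusted p = 0.110). Th, which encodes the rate-limiting enzyme of dopamine synthesis, ranged over 7.98, 8.63 and 9.28 in IL-6 Low and 7.64, 8.31 and 9.09 in Control. For both genes Control replicate 1 was the lowest array, and IL-6 Low replicate 6 the highest. The list's median was 0.49 within letter E, -0.069 within F, 0.069 within G and 0.31 within H, so the higher level was not common to all pairs of arrays. Without Control replicate 1 it was 0.057, with 10 genes higher.

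No gene of the responses to TNFα, interferon and prostaglandins had an unadjusted p under 0.05. The 21 tested genes of the TNF and NF-kB response had 9 higher and 12 lower means and a median of -0.023, and differences lay between -0.21 and 0.14. At the ends stood Cxcl1, which encodes a neutrophil chemokine (unadjusted p = 0.0819), and Birc3, an inhibitor of apoptosis. The 24 tested interferon genes had 6 higher and 18 lower means with a median of -0.021. The antiviral gene Oas2 ranged over 3.90, 4.13 and 4.85 in IL-6 Low and 4.18, 4.52 and 4.78 in Control. Apart from IL-6 Low replicate 4, which was the highest of the 12, its IL-6 Low arrays lay at the lower end, and the difference of -0.28 (unadjusted p = 0.0586) was -0.40 without that array. The ubiquitin-like gene Isg15 differed by -0.18. Prostaglandin synthesis and receptor genes had 5 higher and 10 lower means of 15, with Ptgis (prostacyclin synthase) and Ptgir (the prostacyclin receptor) both at -0.18.

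Glucocorticoid-responsive genes had 4 higher and 14 lower means of 18 tested, against 54.2% lower over all tested genes, with a median of -0.065. Within letters the list's median was -0.026 in E, -0.14 in F, 0.045 in G and -0.16 in H, so the direction was not common to all 4. Pdk4, which encodes a kinase that inactivates pyruvate dehydrogenase and is known as a fasting and glucocorticoid gene, had the smallest unadjusted p of all genes lower in IL-6 Low (0.00290, adjusted p = 1.00 in limma's test). Its level was 5.47, 5.52, 5.41, 5.40, 5.85 and 5.47 in IL-6 Low replicates 1 to 6, and 5.76, 6.24, 5.76, 5.97, 5.77 and 5.73 in Control replicates 1 to 6. IL-6 Low replicate 5 alone reached the range of Control, and the other IL-6 Low arrays lay below every Control array. The difference was -0.35 ± 0.10 (SE), or 78.4% of Control. It was negative within all 4 letters (-0.29 in E, -0.53 in F, -0.24 in G and -0.27 in H), and the unadjusted p stayed under 0.05 under all 28 alternatives, between 0.000500 and 0.0240. Pdk4 was picked by its p, and these values reuse the arrays that ranked it, so they are no independent support. The gene was lowest of 18 in its list, and Sgk1, a kinase induced by glucocorticoids, stood next at -0.34. Sgk1 was named after its values were seen and had an unadjusted p of 0.247 in limma's test. Its difference was -0.28 within letter E, -0.79 within F, 0.62 within G and -1.45 within H. Per1, a glucocorticoid-responsive clock gene, differed by -0.13.

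Immediate early genes, which report recent neuronal activity, had 9 higher and 8 lower means of 17, with a median of 0.024 and none with an unadjusted p under 0.05. Egr2 ranged over 3.89, 4.37 and 4.45 in IL-6 Low and 4.30, 4.52 and 4.82 in Control, and IL-6 Low replicate 1 was the lowest. Its difference was -0.22, or -0.14 without that array, and that of Egr4 -0.18. The clock genes had 10 higher and 7 lower means of 17, with a median of 0.0080. Ciart, a repressor of the clock, ranged over 6.63, 7.36 and 8.39 in IL-6 Low and 6.83, 6.89 and 7.37 in Control. Its highest array was IL-6 Low replicate 4, its difference of 0.34 was 0.14 without that array, and its second cluster differed by -0.13. Leptin and insulin signalling genes had 8 higher and 11 lower means of 19 and a median of -0.00010.

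Markers of meningeal fibroblasts, the cells of the membranes around the brain, had a lower mean in IL-6 Low for all 22 tested members, against 54.2% lower over all tested genes. The median difference was -0.26, and the members ranged between -0.49 (Fmod, a small proteoglycan of connective tissue) and -0.066 (the transcription factor gene Foxc1). One of the 22, the collagen gene Col1a1, had an unadjusted p under 0.05 (0.0341, difference -0.26 ± 0.11, SE), and none passed after adjustment. The mean level of the list ranged over 5.92, 6.72 and 7.11 in IL-6 Low and 5.96, 6.93 and 7.59 in Control. The groups overlapped, with IL-6 Low replicate 2 and Control replicate 6 the lowest and Control replicates 1 and 4 the highest. The members mark the same cells and are not independent observations. Within letters the median difference was -0.63 in E, -0.49 in F, -0.31 in G and 0.76 in H, where 2 of 22 were lower. It was -0.48 without Control replicate 6, -0.49 without both Control replicates 5 and 6, -0.15 without Control replicate 1 and -0.13 without IL-6 Low replicate 2 or Control replicate 4. The list holds Aldh1a2, which encodes an enzyme of retinoic acid synthesis and ranged over 5.18, 6.01 and 6.82 in IL-6 Low and 4.72, 6.40 and 7.42 in Control, and Igfbp2, a binding protein of insulin-like growth factors, which ranged over 5.76, 6.64 and 7.18 in IL-6 Low and 6.00, 7.08 and 7.62 in Control.

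**Figure D4:**
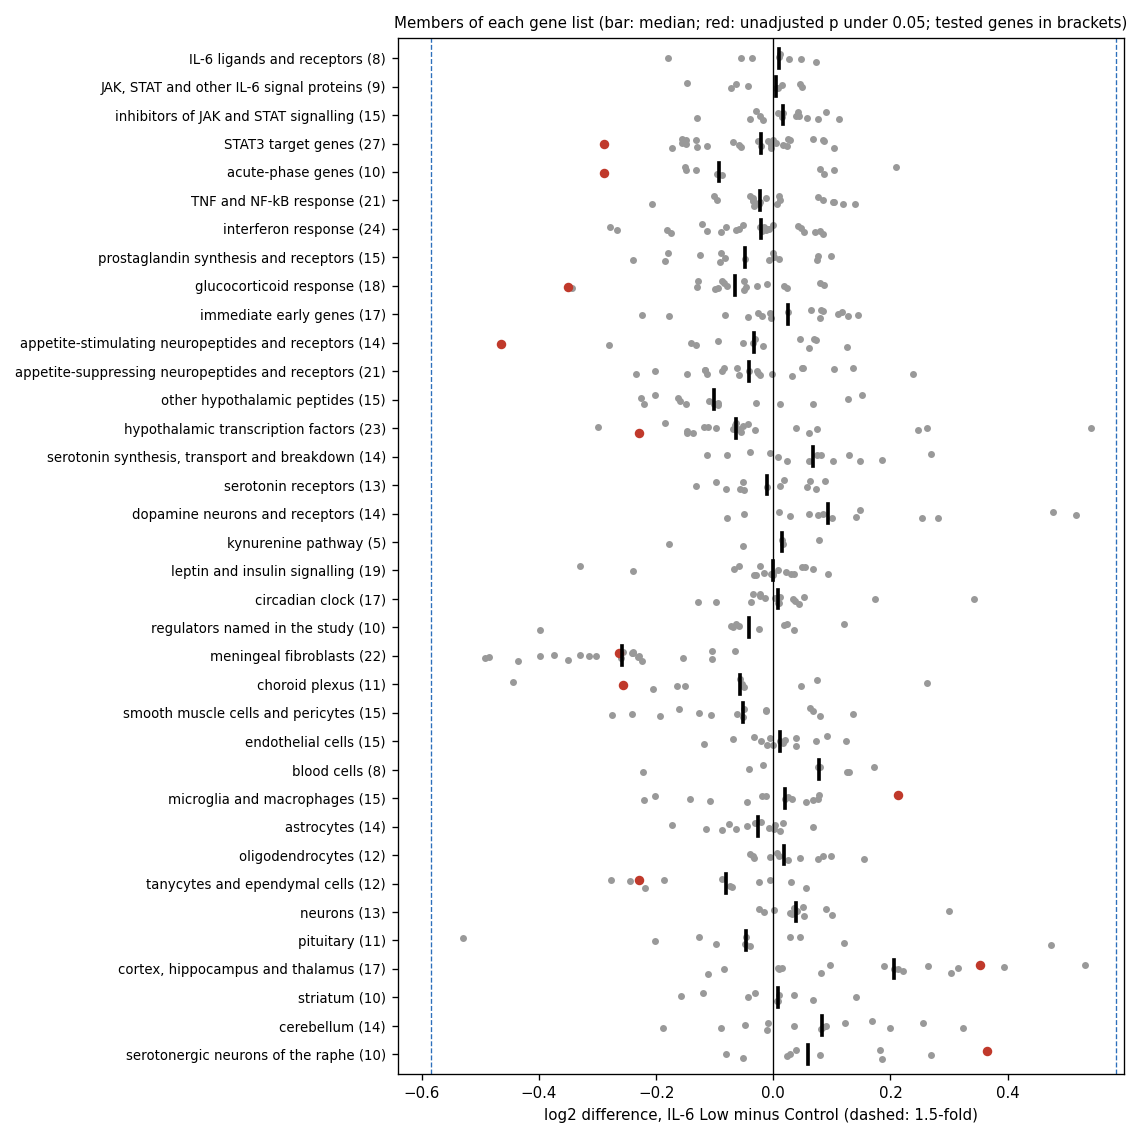
Log2 difference of IL-6 Low minus Control (x axis) for the tested members of each of 36 gene lists (rows, with the number tested), with black bars at the medians, red points for an unadjusted p under 0.05 and dashed lines at a 1.5-fold difference. The meningeal fibroblast list has its median furthest below 0 (-0.26) and that of cortex, hippocampus and thalamus furthest above (0.21), and no member passed the adjusted threshold.

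Markers of cortex, hippocampus and thalamus, which lie near the hypothalamus, had 15 higher and 2 lower means of 17, with a median of 0.21, against 45.8% higher over all tested genes. Neurod6, a transcription factor of cortical and hippocampal neurons, had an unadjusted p of 0.0120 at a level below an intensity of 20 on all 12 arrays. Differences were largest for Prkcd (0.53) and Tcf7l2 (0.39), with an unadjusted p of 0.345 and 0.219 in limma's test. The 2 lower members were Emx1 (-0.11) and Fezf2 (-0.083). The mean level of the list was 6.84, 6.79, 7.41, 6.91, 7.46 and 7.43 in IL-6 Low replicates 1 to 6, and 6.43, 7.20, 6.90, 6.99, 6.61 and 7.64 in Control replicates 1 to 6. Control replicate 6, the lowest Control array for meningeal markers, was the highest of the 12 here, and Control replicate 1 was the lowest. Without Control replicate 1 the median was 0.070, with 11 higher, and without Control replicate 5 it was 0.059. Within letters it was 0.50 in E, 0.058 in F, 0.15 in G and -0.19 in H. The part of these markers in the differences of other genes was not tested.

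Markers of the other cell types stayed closer to 0. Tanycyte and ependymal genes had 2 higher and 10 lower means of 12 (median -0.081), choroid plexus genes 3 higher and 8 lower of 11 (median -0.057) and genes of smooth muscle cells and pericytes 4 higher and 11 lower of 15 (median -0.052). In the choroid plexus list, the water channel gene Aqp1 had an unadjusted p of 0.0410. Neuronal genes had 11 higher and 2 lower means of 13 with a median of 0.038, and 5 higher and 8 lower without Control replicate 1. Astrocytes (median -0.026), oligodendrocytes (0.017), endothelial cells (0.012) and microglia and macrophages (0.019) had medians near that of all genes. Of the remaining lists, blood cell genes had 5 higher and 3 lower means of 8 (median 0.078), striatal genes 6 and 4 of 10 (0.0074) and cerebellar genes 9 and 5 of 14 (0.083). Regulators that the study named from these samples and its other treated groups, which are no independent evidence, had 4 higher and 6 lower means of 10 (-0.041). The study inferred them with the Ingenuity pathway software, and not all were listed for IL-6 Low. The values here are the regulators' own mRNA and not their inferred activity. Among the microglial genes, Itgam, which encodes the integrin CD11b, ranged over 6.59, 6.81 and 6.99 in IL-6 Low and 6.20, 6.66 and 6.74 in Control (difference 0.21 ± 0.093, SE, unadjusted p = 0.0335). Control replicate 1 was the lowest array, and the difference was 0.14 without it.

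Further members of smallest p, from lists without an unadjusted p under 0.05, did not pass the adjusted threshold. Nefm, a neurofilament gene of large neurons, ranged over 8.13, 8.50 and 8.71 in IL-6 Low and 7.52, 8.25 and 8.69 in Control, with Control replicate 1 the lowest array. Its difference was 0.30 (unadjusted p = 0.0570), or 0.17 without that array, and that of the related gene Nefl 0.10. Cd3e, a subunit of the T cell receptor complex, differed by -0.22 (unadjusted p = 0.0514) and Slc4a1, the anion exchanger of red cells, by 0.17. Contractile genes of smooth muscle were at -0.24 for Myl9 and -0.19 for Lmod1, and both were highest on Control replicate 1. Of the glial genes, Agt (angiotensinogen) and Mlc1 of astrocytes differed by -0.075 and -0.087, and the myelin genes Opalin and Ugt8a by 0.15 and 0.098. The endothelial genes Itm2a and Tek stood at -0.12 and 0.12. For neurons of other regions, the striatal genes Rgs9 and Bcl11b differed by -0.16 and -0.12, and the cerebellar genes Cdh15 and Pcp2 by 0.20 and -0.19. Kyat3, an enzyme of the kynurenine pathway, differed by 0.078, the growth factor gene Igf1 by 0.093 and Mrtfa, a coactivator that responds to actin, by -0.072.

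Pituitary hormone genes were high on 1 array of each group. Gh, which encodes growth hormone, stood at 11.1 on IL-6 Low replicate 4 and at 8.96 on Control replicate 6, while the other IL-6 Low arrays lay between 5.25 and 5.88 and the other Control arrays between 4.93 and 5.88. Prl, which encodes prolactin, reached 7.66 and 6.43 on the same 2 arrays. Both genes were named after their values were seen. Leaving both arrays out raised the number of genes with an unadjusted p under 0.05 to 553 higher and 282 lower, against 80 and 170 with all arrays, and none passed after adjustment, with a smallest adjusted p of 0.851. Cga, the gene of the hormone subunit that pituitary glycoproteins share, was highest on another array, Control replicate 3. It ranged over 4.24, 4.75 and 6.03 in IL-6 Low and 4.88, 5.46 and 6.30 in Control (difference -0.53 ± 0.27, SE, unadjusted p = 0.0608).

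The 10 genes of smallest unadjusted p among those higher in IL-6 Low were Depdc7, Serpinb1a, Cd84, Timm8a1, Fhl4, Kcnk13, Neurod6, Usp17ld, Cd80 and Slc17a8, with differences between 0.25 and 0.57. Depdc7, which had the smallest p of all (0.00137), was 4.96, 5.22, 4.77, 4.89, 5.05 and 4.93 in IL-6 Low replicates 1 to 6 and 4.54, 4.65, 4.88, 4.51, 4.59 and 4.37 in Control replicates 1 to 6. Control replicate 3 alone reached into the IL-6 Low range. The difference of 0.38 ± 0.10 (SE) made IL-6 Low 130% of Control, and it was positive within all 4 letters and lay between 0.33 and 0.44 when single arrays were left out. Depdc7 was picked by its p from these same arrays, so its steadiness is no independent support. Cd84, an adhesion receptor of immune cells, was the 1 gene (0.00658% of tested genes) with every IL-6 Low array above every Control array, at 4.15 to 4.45 in IL-6 Low and 3.92 to 4.11 in Control. These levels are close to the intensity minimum, which 2 IL-6 Low arrays and no Control array exceeded. For Fhl4 and Neurod6 no array exceeded the minimum. It was exceeded by 5 IL-6 Low and 2 Control arrays for Slc17a8, and by 4 IL-6 Low and 1 Control array for Cd80. Cd80, which encodes a co-stimulatory ligand of antigen-presenting cells, ranged over 4.24, 4.49 and 4.71 in IL-6 Low and 3.90, 4.20 and 4.36 in Control, and a second cluster of the gene differed by -0.034. Timm8a1, a chaperone gene of the mitochondrial intermembrane space, was measured by a pair of clusters that differed by 0.32 and 0.29. Serpinb1a encodes an inhibitor of neutrophil proteases and Kcnk13 a leak potassium channel. Usp17ld belongs to a family of near-identical copies, so its value is uncertain.

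Among genes lower in IL-6 Low, the 10 of smallest unadjusted p were Pdk4, Apol10a, Hhipl2, Rnf182, Plcd3, Ankrd63, Defb25, Alpk2, Pla2g2c and Mab21l3, with differences between -0.41 and -0.26. Hhipl2, Alpk2, Pla2g2c and Mab21l3 lay around the intensity minimum. No IL-6 Low array exceeded 20 for any of them, against 5, 2, 4 and 4 Control arrays in that order. Apol10a, of the apolipoprotein L family, ranged over 3.85, 4.31 and 4.58 in IL-6 Low and 4.51, 4.66 and 4.99 in Control, and its close relatives make the value uncertain. Rnf182, which encodes a ubiquitin ligase, ranged over 5.99, 6.11 and 6.23 in IL-6 Low and 6.19, 6.38 and 6.66 in Control. In each, 1 IL-6 Low array lay within the range of Control. Without any difference, full separation of 6 against 6 arrays in either direction has a permutation probability of 0.00216. The shares of genes separated here, 0.00658% above and 0.0592% below, together fall short of it. For 9 genes (0.0592% of tested genes) every IL-6 Low array lay below every Control array. Those of smallest p were Plcd3 (5.14 to 5.39 in IL-6 Low, 5.42 to 5.74 in Control), Alpk2 (3.76 to 4.03 in IL-6 Low, 4.04 to 4.36 in Control), Ocstamp (4.54 to 4.83 in IL-6 Low, 4.83 to 5.03 in Control), Ypel1 (5.31 to 5.46 in IL-6 Low, 5.48 to 5.97 in Control) and Col14a1 (4.80 to 5.03 in IL-6 Low, 5.07 to 5.26 in Control). Plcd3 encodes a phospholipase C, Ocstamp a membrane protein of osteoclast fusion and Col14a1 a fibril-associated collagen. All had an adjusted p of 1.00 in limma's test. Second clusters of Alpk2 and Ypel1 differed by 0.050 and -0.059.

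The largest folds depended on single arrays. Tns1, which encodes the focal-adhesion protein tensin, had the largest positive difference, 0.86 ± 0.32 (SE, unadjusted p = 0.0150), a fold of 1.82. Its level was 8.21, 6.88, 7.27, 9.82, 8.57 and 7.77 in IL-6 Low replicates 1 to 6, against 6.91 to 7.62 in Control. IL-6 Low replicates 1, 4 and 5 were the highest, IL-6 Low replicate 2 was below all Control arrays, and the difference was 0.52 without IL-6 Low replicate 4. The array holds 6 clusters for this gene. The other 5 differed between -0.070 and 0.040, so the higher value is that of 1 cluster and not of the gene as a whole. Aldh3b3, an aldehyde dehydrogenase gene, followed the same arrays, with 7.95, 6.63, 7.20, 9.55, 8.30 and 7.07 in IL-6 Low replicates 1 to 6 and 6.51 to 7.41 in Control. Its difference was 0.86 ± 0.33 (SE, unadjusted p = 0.0187), or 0.51 without IL-6 Low replicate 4, and its second, weaker cluster differed by 0.084. Shox2, a transcription factor gene of the thalamus among other places, ranged over 4.56, 5.54 and 6.30 in IL-6 Low and 3.78, 4.50 and 6.52 in Control (difference 0.59 ± 0.38, SE, unadjusted p = 0.137), with Control replicate 6 the highest array, as for the list of cortex, hippocampus and thalamus.

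On the side of lower folds, Sly, a multicopy Y-linked gene of spermatids, had a difference of -0.73 ± 0.38 (SE, unadjusted p = 0.0690). It stood at 6.26 on Control replicate 1, whereas the other Control arrays lay between 2.96 and 3.93 and the IL-6 Low arrays between 2.95 and 3.38. Without Control replicate 1 the difference was -0.25. Sly exceeded an intensity of 20 on none of the IL-6 Low arrays and on 1 Control array, so it passed the filter through arrays of other groups. The 3 other genes lower by a fold over 1.5 are predicted genes. With a filter on the 12 arrays compared, none of the genes lower by this fold was tested. No gene was lower by this fold once Control replicate 1 was left out, and with a further array left out, IL-6 Low replicate 4, no gene was higher by this fold either and 3 were lower.

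**Figure D5:**
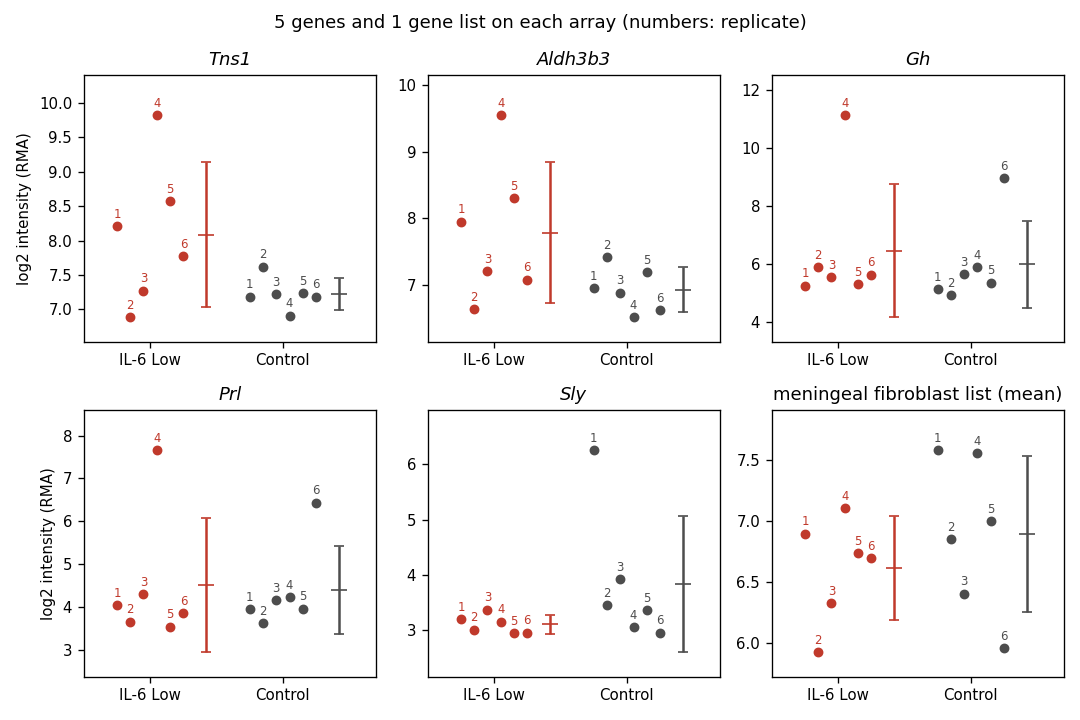
Log2 intensity (y axis) of Tns1, Aldh3b3, Gh, Prl and Sly, and the mean log2 intensity of the 22 meningeal fibroblast markers, on each array, IL-6 Low left and Control right, with replicate numbers and mean ± SD. IL-6 Low replicate 4 is high for Tns1 (9.82), Aldh3b3 (9.55), Gh (11.1) and Prl (7.66), Control replicate 6 for Gh (8.96) and Prl (6.43), and Control replicate 1 for Sly (6.26).

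The other groups given IL-6 were compared with the same 6 Control arrays, so their values are set side by side without a test of likeness, in the order 50 pg IL-6, 800 pg IL-6, 50 pg IL-6 with TNFα and 800 pg IL-6 with TNFα. The log2 differences of Npy from Control were -0.46, -0.25, -0.59 and -0.26. Those of Socs3 were -0.13, -0.13, -0.088 and 0.018. Pdk4 differed by -0.35, 0.027, -0.34 and -0.25, and Depdc7 by 0.38, 0.081, 0.13 and 0.28. Thus all 4 values were negative for Npy and positive for Depdc7, while the sign was not common to all 4 groups for Socs3 and Pdk4. These signs are not particular to IL-6. TNFα alone, without its replicate 4 (described below), gave -0.029 for Npy, -0.13 for Socs3, -0.060 for Pdk4 and 0.31 for Depdc7. None of the differences between these groups was tested. For Tns1 the 4 values were 0.86, 0.53, 0.88 and 1.07.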

How the data were processed

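Hypothalamic RNA of 12 mice, 6 of IL-6 Low and 6 of Control, was measured on 1 Affymetrix Mouse Gene 1.1 ST array each. The authors deposited log2 intensities from robust multi-array averaging (RMA, version not given in the sources used here), by the array's own transcript clusters and not by the remapped probe sets of the study's methods. Of 35556 clusters, 21218 had 1 gene in the platform annotation, 1881 several and 12457 none. Clusters with 1 gene were used, and for the 1386 genes with more than 1 cluster that of highest mean, giving 18820 genes. The 15192 genes over an intensity of 20 on at least 3 of all 36 arrays were tested. This count included replicate 4 of the TNFα group, whose lower quartile was 5.49 on the log2 scale, against 4.04 to 4.17 on the 12 arrays compared. Without that array in the filter, 15048 genes remained.

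IL-6 Low and Control were compared with limma 3.58.1 (R 4.3.3; lmFit, and eBayes with an intensity trend) on these 12 arrays. P-values were adjusted by Benjamini-Hochberg over all tested genes at a threshold of 0.05. 6 genes were also tested by an exact two-sided permutation test over 924 arrangements. Figures, promoter searches and tables were made with Python 3.11.15, and scripts were tested on simulated data. Each array is a separate mouse by the labels.

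Genes named were the 10 of smallest p in each direction, those past a 1.5-fold difference, those of smallest p whose groups did not overlap (5 per direction), genes the study names for IL-6 and feeding, and in each of 36 lists the members with a p under 0.05 or otherwise the 2 of smallest p. Predicted genes were counted but not named. Gh, Prl, Jak1, Jak2, Socs1, Lcn2, Gal, Hcrt, Ghsr, Sgk1, Fmod, Foxc1, Prkcd, Tcf7l2, Emx1 and Fezf2 were named after their values were seen. Members and lists were chosen with earlier results of these data known. One gene named in the study is not reported here. Alternatives covered the arrays in the fit, filter, scaling, moderation, array weights, blocks, clusters per gene and arrays left out.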

Additional observations from a re-analysis of the deposited data

Results flagged for a closer look

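In 13 of 204 groups (102 genes, each in IL-6 Low and Control) 1 array stood far from the other 5, by the gap to its nearest neighbour relative to the whole range. Chance alone gives about 1 in 20 groups, and part of these genes were named because of their values, so the number says nothing about an excess. Gh and Prl, both named after their values were seen, account for 4, and without them 9 of 200 groups (4.50%) stood out. Gh was 11.1 on IL-6 Low replicate 4, against 5.25 to 5.88 on the other IL-6 Low arrays, and 8.96 on Control replicate 6, against 4.93 to 5.88 on the other Control arrays. Prl was 7.66 and 6.43 on the same arrays, against 3.54 to 4.30 on the other IL-6 Low arrays and 3.62 to 4.23 on the other Control arrays.

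IL-6 Low replicate 6 was high for both serotonergic genes, with Tph2 at 5.70 (others 3.73 to 4.41) and Slc6a4 at 5.69 (others 4.17 to 4.73). Among the other IL-6 Low arrays, Pdk4 was 5.85 on replicate 5 (others 5.40 to 5.52), Oas2 was 4.85 on replicate 4 (others 3.90 to 4.24) and Egr2 was 3.89 on replicate 1 (others 4.36 to 4.45).

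Control replicate 1 stood apart for 4 genes. Sly was 6.26 (others 2.96 to 3.93) and the striatal signalling gene Rgs9 8.37 (others 8.10 to 8.20), both above the other Control arrays. Itgam was 6.20 (others 6.59 to 6.74) and Jak1 9.27 (others 9.41 to 9.45), both below them.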

How the results depend on the processing

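No gene passed an adjusted p of 0.05 under any of the 28 alternatives, whereas counts at an unadjusted p moved with the arrays and the scaling. Genes higher in IL-6 Low at an unadjusted p under 0.05 (80 in the analysis above) and lower (170) numbered 23 and 40 with all 36 arrays in the fit, 60 and 151 with 35 arrays, without replicate 4 of the TNFα group, whose median correlation with the other arrays was 0.270 (the study left out an unnumbered array of that group), 123 and 326 without an intensity filter, 42 and 81 with a minimum of 50, 124 and 164 after median centring, 183 and 176 after quantile normalization, 186 and 274 with array weights and 163 and 301 without Control replicates 5 and 6. Without Control replicate 6 and IL-6 Low replicate 4, a pair left out after seeing the data, they numbered 553 and 282. Leaving out single arrays gave 61 (without Control replicate 1) to 215 (without Control replicate 6) higher and 140 (without IL-6 Low replicate 4) to 347 (without Control replicate 6) lower. The share of higher genes, 32.0% above, was 40.4% with array weights, 55.3% without IL-6 Low replicate 4 and 66.2% without that array and Control replicate 6. Genes past a fold of 1.5 (3 higher, 4 lower) numbered 5 higher and 6 lower without the filter, 7 higher and 1 lower with array weights, 1 higher and 3 lower with the mean of all clusters, 9 and 20 without Control replicates 5 and 6, 16 and 29 without Control replicate 6 and IL-6 Low replicate 4, and 0 and 3 without Control replicate 1 and IL-6 Low replicate 4 (also chosen after seeing the data). None was lower by this fold (0) with a minimum of 50 or a filter on the 12 arrays. With the 35 arrays 1 was lower, and with all 36 arrays in the fit 4 were. A fold of group means does not change with the fit, and the 35 arrays also set the intensity filter in that alternative. Single arrays left out gave 3 to 15 higher and 0 to 14 lower. Genes past a fold of 1.2 with an unadjusted p under 0.05 (88) numbered 25 with 36 arrays, 71 with those 35 arrays, 197 without the filter, 26 with a minimum of 50, 133 with the array letter as a block, 270 without Control replicates 5 and 6, 338 without Control replicate 6 and IL-6 Low replicate 4, and 94 to 288 when single arrays were left out. The cause of these shifts was not tested.

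Replicate numbers are shared by both groups, and same-numbered arrays also share the letter of the array name, whose meaning is not given. With the replicate block, 123 genes were higher and 261 lower at an unadjusted p under 0.05, 156 passed a fold of 1.2 as well, and no gene passed the adjusted threshold. The unadjusted p of Npy was then 0.00212, whereas its exact permutation test used neither number nor letter. After the group mean of each gene was subtracted, same-numbered arrays correlated between -0.13 and 0.31, over 0.1 in 4 of 6 pairs. By this measure 3 of 6 IL-6 Low arrays correlated best with their own number. The labels tie no number to a shared litter or day, so the arrays were not treated as pairs in the main comparison.

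Some signs turned. With array weights the differences were -0.19 for Gh, -0.23 for Prl and -0.013 for Jak2. Without Control replicate 1 and IL-6 Low replicate 4 they were -0.64 for Gh, -0.60 for Prl, -0.11 for Lcn2, -0.0099 for Jak2 and -0.014 for Ugt8a, and without Control replicate 6 and IL-6 Low replicate 4 -0.10 for Prl and -0.047 for Lcn2. Single arrays left out gave -0.067 to 0.33 for Tph2, -0.0039 to 0.053 for Il6ra, -0.46 to 1.07 for Gh, -0.51 to 0.53 for Prl, -0.31 to 0.00099 for Fgl2, -0.082 to 0.23 for Lcn2, -0.019 to 0.042 for Jak1, -0.021 to 0.046 for Jak2, -0.0048 to 0.14 for Socs1, -0.16 to 0.10 for Hcrt and -0.20 to 0.055 for Foxc1. The Npy difference was negative under all 28 alternatives, between -0.61 and -0.25. The smaller difference came from leaving out both Control replicate 1 and IL-6 Low replicate 4, and single arrays left out gave -0.61 to -0.28. Its unadjusted p was under 0.05 in 23 of the 28 (0.00108 to 0.131). Genes near the minimum intensity, such as Hp, Cd84 and Tph2, are measured least well.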
